A study of Mus musculus with 6 samples.

Results

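The 10 genes described here carry out presentation of peptides on MHC class I molecules. They form a list of names drawn up by function, with earlier results of these data known, and comprise the heavy chain genes H2-K1, H2-D1 and H2-T23, the light chain gene B2m, the peptide transporter genes Tap1 and Tap2, the loading genes Tapbp and Calr, the peptide trimming gene Erap1 and the transcriptional regulator Nlrc5. All 10 were present among the 25690 gene symbols of the files, and all 10 were among the 15474 genes with enough counts for a test. RNA-seq had been performed on immature CD27SP NK cells, sorted from mouse BM as NK1.1+CD27+CD11b− cells. Mice of the study's genotypes, all on a C57BL/6 background, gave 3 libraries each, the control Ncr1cre Myc wt/wt (below, wt/wt) and, with loxP-flanked Myc, Ncr1cre Myc fl/fl (below, fl/fl), and both carry the replicate numbers 1, 2 and 4. Both genotypes carry the Cre recombinase under control of Ncr1, the gene of the NK cell receptor NKp46, so that floxed Myc is deleted only in cells that have begun to express it. The labels do not say whether each library came from a separate mouse, and p-values measure the spread between these libraries.

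Class I molecules are made of a polymorphic heavy chain and the invariant light chain β2-microglobulin. Peptides cut by the proteasome are carried into the ER by the TAP1-TAP2 transporter, trimmed by ERAP1, and loaded onto the heavy chain with the help of tapasin and calreticulin, after which the complex travels to the cell surface. For NK cells these molecules matter in more than one way, since NK cells carry class I molecules themselves and read them on other cells through inhibitory receptors of the Ly49 family, which bind the classical H-2K and H-2D molecules, and through CD94-NKG2A, which binds Qa-1, the product of H2-T23.

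Transcription of the class I genes is known to depend on a promoter module that recruits NLRC5, on interferon-responsive elements, and on CCAAT boxes, while MYC with its partner MAX binds the E-box. Promoter windows from 250 bases before to 50 bases after the start site were read from RefSeq (GRCm38.p6) for 8 of the 10 genes. Tap2 and Nlrc5 had no match. Those of 5 genes are shown, with every match in capitals. They comprise a classical heavy chain gene and the 2 genes with an E-box match. The other 2 are the genes with an exact match to the interferon element core and no E-box match. Only exact matches were searched, so elements that depart from the letters searched are not marked. Motifs searched on both strands were the E-box core CACGTG, present in 7.15% of 32851 promoter windows, the interferon-stimulated response element core GAAANNGAAA (3.44%), the CCAAT box (37.4%) and TGACGC (7.40%), a core of the X2 element of the NLRC5-dependent module. The windows lie at chr17:35262844-35263143 on the plus strand for H2-D1, at chr17:36032652-36032951 on the minus strand for H2-T23, at chr2:122147437-122147736 on the plus strand for B2m, at chr13:74639603-74639902 on the plus strand for Erap1 and at chr8:84846882-84847181 on the minus strand for Calr.
H2-D1: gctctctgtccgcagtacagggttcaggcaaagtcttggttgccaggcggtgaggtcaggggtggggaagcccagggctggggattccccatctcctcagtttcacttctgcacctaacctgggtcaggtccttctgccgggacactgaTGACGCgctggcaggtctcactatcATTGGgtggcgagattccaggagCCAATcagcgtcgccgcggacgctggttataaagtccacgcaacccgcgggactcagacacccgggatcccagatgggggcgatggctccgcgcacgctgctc
H2-T23: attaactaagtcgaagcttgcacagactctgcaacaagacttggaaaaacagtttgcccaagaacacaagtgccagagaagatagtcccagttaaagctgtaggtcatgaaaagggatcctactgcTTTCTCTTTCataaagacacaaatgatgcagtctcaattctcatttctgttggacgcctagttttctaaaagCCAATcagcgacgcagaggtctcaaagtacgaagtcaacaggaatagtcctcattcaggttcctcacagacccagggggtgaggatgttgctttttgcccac
B2m: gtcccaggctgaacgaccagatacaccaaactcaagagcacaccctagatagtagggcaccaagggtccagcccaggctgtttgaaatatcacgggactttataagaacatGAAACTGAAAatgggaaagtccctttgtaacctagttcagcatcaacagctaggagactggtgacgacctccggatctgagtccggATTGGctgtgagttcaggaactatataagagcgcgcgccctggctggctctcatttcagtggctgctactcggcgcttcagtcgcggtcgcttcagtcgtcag
Erap1: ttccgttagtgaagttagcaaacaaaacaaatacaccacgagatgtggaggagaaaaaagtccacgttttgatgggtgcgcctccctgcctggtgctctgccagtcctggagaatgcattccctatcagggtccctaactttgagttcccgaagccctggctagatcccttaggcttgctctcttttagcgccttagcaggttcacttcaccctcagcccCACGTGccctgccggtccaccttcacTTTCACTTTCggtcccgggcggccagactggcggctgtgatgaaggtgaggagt
Calr: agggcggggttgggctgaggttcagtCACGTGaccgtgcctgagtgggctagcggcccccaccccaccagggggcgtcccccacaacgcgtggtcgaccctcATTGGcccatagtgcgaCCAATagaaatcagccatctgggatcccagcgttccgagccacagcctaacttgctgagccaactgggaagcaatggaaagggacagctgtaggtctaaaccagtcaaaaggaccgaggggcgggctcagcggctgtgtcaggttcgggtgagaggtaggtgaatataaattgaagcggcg

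The H2-D1 window holds TGACGC at −101 and CCAAT boxes at −53 and, on the reverse strand, at −76 from the start site. H2-K1 has the same arrangement, the X2 core and a CCAAT box in each direction, in both of its RefSeq windows. H2-T23 holds an interferon element core on the reverse strand at −124 and a CCAAT box at −52, and B2m holds the same pair of motifs with the opposite orientation, at −139 and −53. Erap1 and Calr were the only ones of the 8 matched genes with the E-box core, at −30 and −224. Erap1 also held an interferon element core on the reverse strand at −4. Calr also held CCAAT boxes at −131 and, on the reverse strand, at −148. Among the motifs searched, Tap1 and Tapbp had exact matches only to the CCAAT box. The Tap1 start site lies 226 bases from that of Psmb9, an immunoproteasome subunit gene read in the opposite direction, and their windows share 275 bases. A match describes letters only, since no binding was measured in these libraries. A motif without an exact match may still be present in a variant form, which was not searched.

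In the files of the authors every transcript has an estimated count and a TPM value (a share of all transcripts of the library, scaled for transcript length). Counts were summed per gene and are given as CPM, a share of the library's total, after TMM normalization, which compares one gene between libraries. Levels of the 10 genes are compared with each other only in TPM. The totals ran from 54550907 to 64962491 estimated counts in 5 libraries, but wt/wt library 1 held 8101219, which makes its values less precise. Myc was lower in all fl/fl libraries, with a mean of 67.5 ± 7.94 CPM (SD, n = 3) against 182.7 ± 18.1 CPM (SD, n = 3) in wt/wt, and a log2 fold change of −1.44 (SE 0.15, edgeR adjusted p = 0.0019).

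None of the 10 genes passed the threshold of an adjusted p below 0.01 with a log2 fold change of at least 0.5 in edgeR's quasi-likelihood test. Among all 15474 genes tested, 0.872% passed it as lower and 1.28% as higher in fl/fl. At an unadjusted p below 0.05, 2 of the 10 were higher, H2-T23 and Tapbp (background 12.4%), and 1 was lower, Nlrc5 (background 10.2%). At an adjusted p below 0.05, 1 was higher, H2-T23 (background 4.45%), and 0 were lower (background 3.38%). DESeq2 called 1 as higher, H2-T23, and 0 as lower, against 4.17% and 3.54% of all genes, and limma-trend called 0, against 1.07% and 0.64%. Fits in edgeR without the replicate block called 0 of the 10, against 1.31% higher and 1.19% lower, and without a filter on low counts 1, again H2-T23 as higher, against 2.53% higher and 1.83% lower. The fold changes had both signs, with 6 genes above 0 and 4 below (51.5% and 48.5% of all genes). Their median log2 fold change was 0.11 beside 0.014 for all genes. In bulk RNA, fewer cells of a type and less RNA per cell cannot be told apart.

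**Figure D1:**
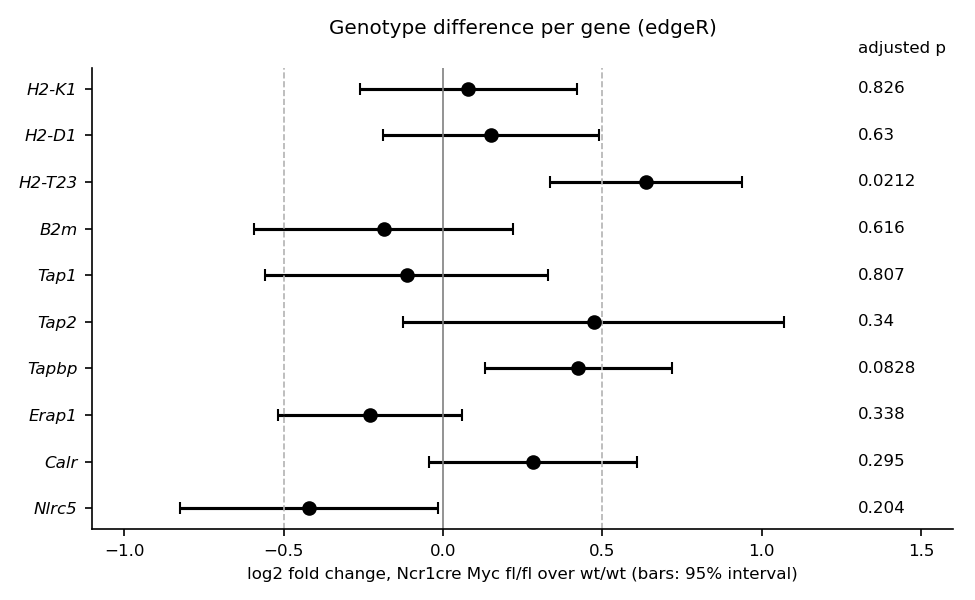
Log2 fold change of each gene, fl/fl over wt/wt, from edgeR, with bars for the 95% confidence interval and 3 libraries for each genotype. H2-T23 at 0.64, Tapbp at 0.42 and Nlrc5 at −0.42 are the genes whose intervals lie on one side of 0.

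Among the 3 heavy chain genes, the log2 fold change was largest for the nonclassical one. H2-T23 (ENSMUSG00000067212.8, chr17:36029773-36032855, minus strand) had CPM values of 341, 464 and 510.0 in wt/wt libraries 1, 2 and 4, and of 590.2, 693 and 743 in fl/fl libraries 1, 2 and 4. Each fl/fl library lay above each wt/wt library, and the lowest value was that of the shallow library. The mean was 438 ± 87.5 CPM (SD, n = 3) in wt/wt and 675 ± 77.7 CPM (SD, n = 3) in fl/fl, a log2 fold change of 0.64 (SE 0.13) or 1.56-fold, with a 95% confidence interval of 1.26 to 1.92. Its adjusted p was 0.021 in edgeR and 0.000356 in DESeq2, so that it met the threshold in the second of these tools only. Without both libraries numbered 1 the log2 fold change of H2-T23 was 0.56, with an edgeR adjusted p of 0.069.

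The classical heavy chain genes had far higher TPM levels, and in CPM their genotypes overlapped. H2-K1 (ENSMUSG00000061232.16, chr17:33996017-34000347, minus strand) had 5840.1, 4737 and 4669 CPM in the wt/wt libraries and 4969, 5655 and 5424 CPM in the fl/fl libraries. The highest and the lowest of these values both belonged to wt/wt, and the log2 fold change of 0.08 had a 95% confidence interval from −0.26 to 0.42 (edgeR adjusted p = 0.83). Without both libraries numbered 4 it was −0.0075, and without those numbered 1 it was 0.24. H2-D1 (ENSMUSG00000073411.11, chr17:35262730-35267499, plus strand) had 10116, 8624 and 8178 CPM in wt/wt and 9159, 10399.7 and 10224 CPM in fl/fl. Its groups overlapped as well, with a log2 fold change of 0.15 and an interval from −0.19 to 0.49 (edgeR adjusted p = 0.63). It was 0.30 without both libraries numbered 1 and 0.045 without those numbered 4. In both genes the shallow wt/wt library was the highest of its genotype. When it was set aside, every fl/fl library lay above both remaining wt/wt libraries, with means of 5349 against 4703 CPM for H2-K1 and of 9928 against 8401 CPM for H2-D1.

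The light chain gene B2m (chr2:122147686-122153083, plus strand) had 7693, 5085 and 6505 CPM in wt/wt and 5075, 6313 and 5399.7 CPM in fl/fl. The groups overlapped, with wt/wt libraries 1 and 4 above every fl/fl library and wt/wt library 2 near the lowest of them, and the spread within wt/wt was wider than the difference of the means, 6428 ± 1306 CPM (SD, n = 3) against 5596 ± 642 CPM (SD, n = 3). The log2 fold change was −0.19, with a 95% confidence interval from −0.59 to 0.22 (edgeR adjusted p = 0.62). Without both libraries numbered 1 it turned to 0.021, and without those numbered 2 it was −0.42.

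**Figure D2:**
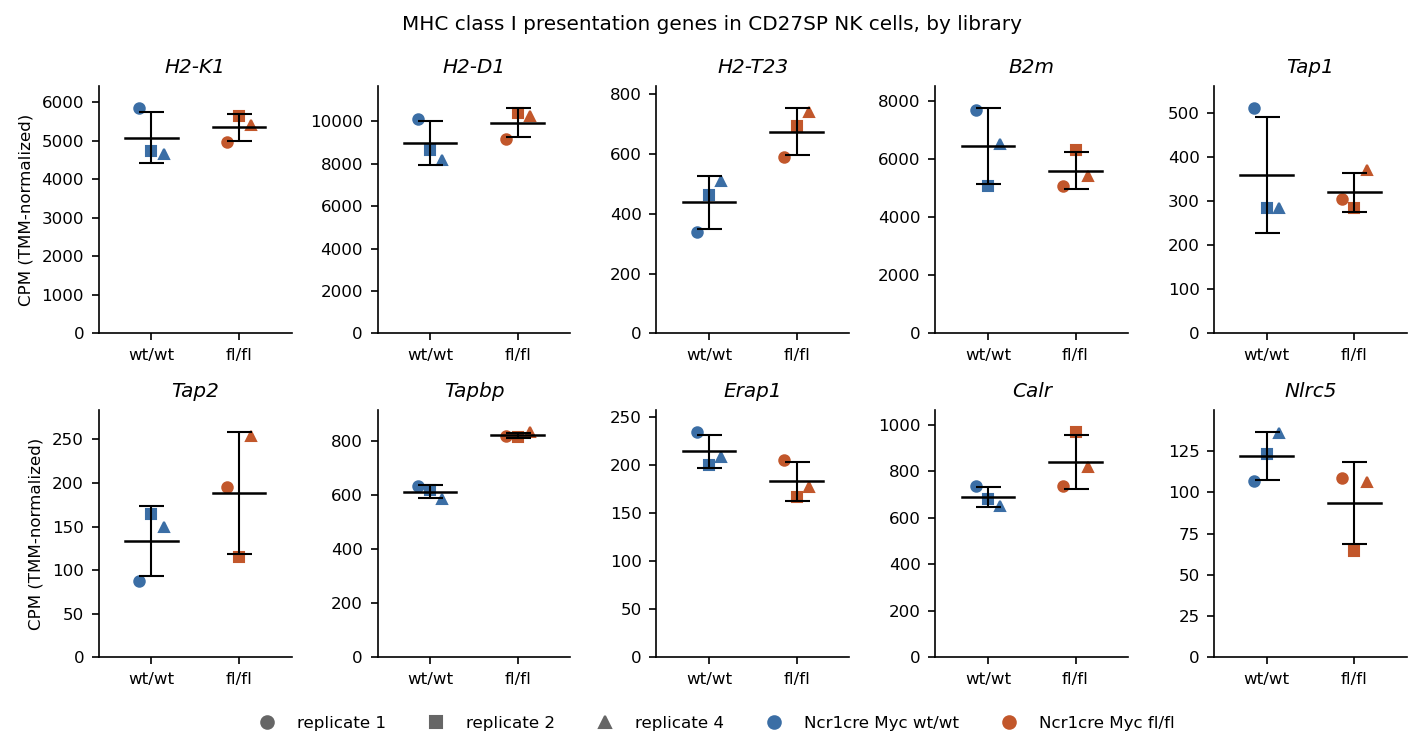
CPM (linear axis from 0) of each of the 10 genes in the 6 libraries, 1 panel a gene, with points for libraries, lines for group means and bars for the SD (n = 3). Points of the 2 genotypes are separated in H2-T23, Tapbp and Calr and overlap in the other panels.

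Because the reads of near-identical heavy chains can be divided between copies by a probabilistic quantifier, the counts of 25 heavy chain genes were summed, and shares of this sum are shares of counts, not scaled for length. The sum was 18842, 15603 and 15794 CPM in the wt/wt libraries and 17152, 19401 and 19280.4 CPM in the fl/fl libraries, with overlapping groups and means of 16746 ± 1818 and 18611 ± 1265 CPM (SD, n = 3 each). H2-D1 made up 53.6% ± 1.75 of these counts in wt/wt and 53.3% ± 0.291 in fl/fl (SD, n = 3 each). H2-K1 made up 30.3% ± 0.717 and 28.8% ± 0.542, and H2-T23 made up 2.67% ± 0.757 and 3.62% ± 0.210 (SD, n = 3 each). The genotypes were separated in the shares of H2-K1, lower in fl/fl, and of H2-T23, higher in fl/fl. Exact two-sided permutation tests gave p = 0.1 for each, the smallest value that 3 against 3 libraries allow, and 0.35 after adjustment over 7 shares. H2-Q7 and H2-Q6, which encode Qa-2 chains, followed with 6.85% and 4.12% of the wt/wt counts and 6.71% and 4.75% of the fl/fl counts.

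The transporter genes lie in the class II region of chromosome 17, with Psmb8 between them. Tap1 (chr17:34187553-34197225, plus strand) had 510.3, 284 and 284 CPM in wt/wt and 306, 285 and 370.1 CPM in fl/fl. Nearly all of the wt/wt spread came from the shallow library, whose value was the highest of the 6, and the other two wt/wt libraries lay just below the lowest fl/fl value. The log2 fold change was −0.11, with a 95% confidence interval from −0.56 to 0.33 (edgeR adjusted p = 0.81), and without both libraries numbered 1 it turned to 0.19. Tap2 (chr17:34203527-34216321, plus strand), the partner subunit of the transporter, had 87.7, 164 and 149 CPM in wt/wt and 195, 115 and 254 CPM in fl/fl. Its fl/fl values took in the lowest but one and the highest of the 6, and the log2 fold change of 0.47 had an interval from −0.12 to 1.07 (edgeR adjusted p = 0.34). Without both libraries numbered 2 it was 0.97 (edgeR adjusted p = 0.017), still short of the limit of 0.01, and without those numbered 1 it was 0.13.

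Tapasin, the product of Tapbp, holds the empty heavy chain next to the transporter. Tapbp (chr17:33915899-33929292, plus strand) had 633, 617.5 and 587 CPM in wt/wt and 819.9, 814 and 832 CPM in fl/fl. The groups did not overlap, at 613 ± 23.5 CPM and 822 ± 8.98 CPM (SD, n = 3 each). The log2 fold change was 0.42 (SE 0.13, 95% confidence interval 0.13 to 0.72), with an adjusted p of 0.083 in edgeR and 0.017 in DESeq2. It is below the limit of 0.5 on the log2 scale, so no adjusted p could have taken it past the threshold. With offsets from effective lengths it was 0.68 (edgeR adjusted p = 0.051).

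Calreticulin, encoded by Calr (chr8:84841850-84846934, minus strand), is the lectin chaperone of the loading complex. Calr had 735, 681 and 649 CPM in wt/wt and 736, 966 and 819.98 CPM in fl/fl. The groups did not overlap, although wt/wt library 1 and fl/fl library 1 were nearly equal, and the log2 fold change was 0.28 with an interval from −0.04 to 0.61 (edgeR adjusted p = 0.30). It was 0.42 without both libraries numbered 1 and 0.18 without those numbered 2. Groups without overlap and with fl/fl higher were thus seen in 3 of the 10 genes, and with fl/fl lower in 0, where all tested genes gave 16.2% and 15.1%. When wt/wt library 1 was set aside, all fl/fl values lay above both others in 6 genes, H2-K1, H2-D1, H2-T23, Tap1, Tapbp and Calr (21.8% of all genes), and below both in 1, Nlrc5 (22.3% of all genes).

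Erap1 (chr13:74639568-74693201, plus strand), the aminopeptidase that trims peptides in the ER to the length that fits the groove, had 233, 199.7 and 208 CPM in wt/wt and 205, 167 and 177 CPM in fl/fl. One fl/fl library lay inside the wt/wt range, and the log2 fold change was −0.23, with an interval from −0.52 to 0.06 (edgeR adjusted p = 0.34). Nlrc5 (chr8:94434356-94527272, plus strand), the class I transactivator, had 107, 123 and 136 CPM in wt/wt and 109, 64.7 and 107 CPM in fl/fl. Library 2 of fl/fl stood below the others, whereas the other two fl/fl libraries were close to wt/wt library 1. The log2 fold change of −0.42 (95% confidence interval −0.82 to −0.02) had an unadjusted p of 0.043 (edgeR adjusted p = 0.20). Without both libraries numbered 2 it was −0.16, and without those numbered 1 it was −0.64.

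In TPM, the 10 genes spanned more than 2 orders of magnitude within a library. In wt/wt the order was B2m at 10306 ± 1738, H2-D1 at 6943 ± 304, H2-K1 at 5418 ± 183, Calr at 578 ± 89.9, Tapbp at 488 ± 126, H2-T23 at 434 ± 108, Tap1 at 192 ± 57.9, Erap1 at 152 ± 33.1, Tap2 at 86.7 ± 35.5 and Nlrc5 at 56.2 ± 12.0 TPM (SD, n = 3 each). The ranges of the libraries overlapped between Calr and Tapbp, Tapbp and H2-T23, Tap1 and Erap1, and Tap2 and Nlrc5, so these neighbours are not ordered beyond their spread. In fl/fl the first 3 places were the same, with B2m at 9447 ± 897, H2-D1 at 8517 ± 486 and H2-K1 at 6501 ± 601 TPM, and here B2m and H2-D1 overlapped. Tapbp at 806 ± 42.4, H2-T23 at 727 ± 69.2 and Calr at 722 ± 96.9 TPM formed a middle group, where Tapbp overlapped H2-T23 and H2-T23 overlapped Calr. Tap1 followed at 189 ± 25.9 TPM, then Erap1 at 131 ± 15.1 and Tap2 at 125 ± 44.6 TPM, which overlapped, and Nlrc5 was again last at 42.6 ± 10.9 TPM. The classical chains and their light chain thus stood far above the transporter and the regulator in both genotypes.

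**Figure D3:**
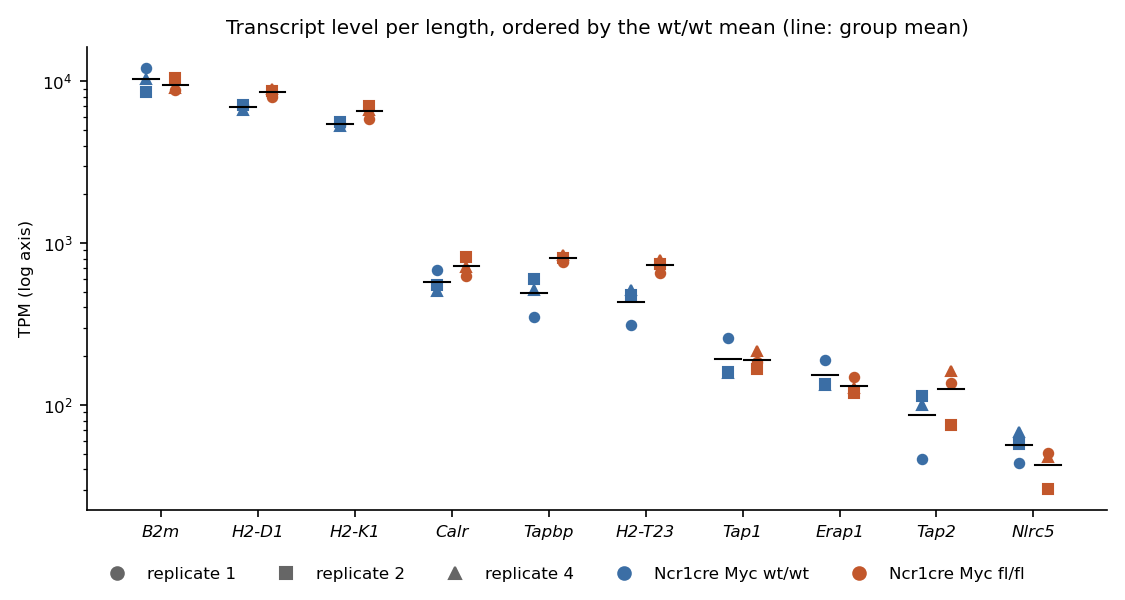
TPM (log axis) of the 10 genes in wt/wt and fl/fl, ordered by the wt/wt mean, with a point for each of the 6 libraries and a line for each group mean. B2m, H2-D1 and H2-K1 lie between 5254 and 12050 TPM, and Nlrc5 lies at the bottom of both genotypes.

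Partner transcripts were compared as ratios within a library, which do not depend on scaling between libraries. The TPM ratio of H2-K1 to B2m was 0.447, 0.655 and 0.510 in the wt/wt libraries and 0.665, 0.668 and 0.734 in the fl/fl libraries. The groups did not overlap, but wt/wt library 2 came within a small margin of fl/fl, and the mean log2 ratio was higher by 0.37 in fl/fl. The ratio of H2-D1 to B2m was 0.588, 0.834 and 0.641 in wt/wt and 0.908, 0.831 and 0.977 in fl/fl, higher by 0.41 on the log2 scale with overlapping groups, and by 0.62 without both libraries numbered 2. Exact two-sided permutation tests over the libraries gave p = 0.1 and p = 0.2, and both were 0.5 after adjustment over the 5 ratios tested. The ratio of H2-D1 to H2-K1 stayed within a narrow band, at 1.28 ± 0.0305 in wt/wt and 1.31 ± 0.0635 in fl/fl (SD, n = 3 each, exact permutation p = 0.5).

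The ratio of Tap1 to Tap2 was 5.57 in wt/wt library 1 and between 1.33 and 2.19 in the other 5 libraries. The difference in its mean log2 ratio, −0.55 in fl/fl (exact permutation p = 0.5), came from that one library and was 0.20 without both libraries numbered 1. Tap1 was also set against Psmb9, with which it shares its promoter region. That ratio was 0.671, 0.427 and 0.383 in wt/wt and 0.485, 0.453 and 0.547 in fl/fl, with mixed groups and a difference in log2 ratio of 0.044 (exact permutation p = 0.9).

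**Figure D4:**
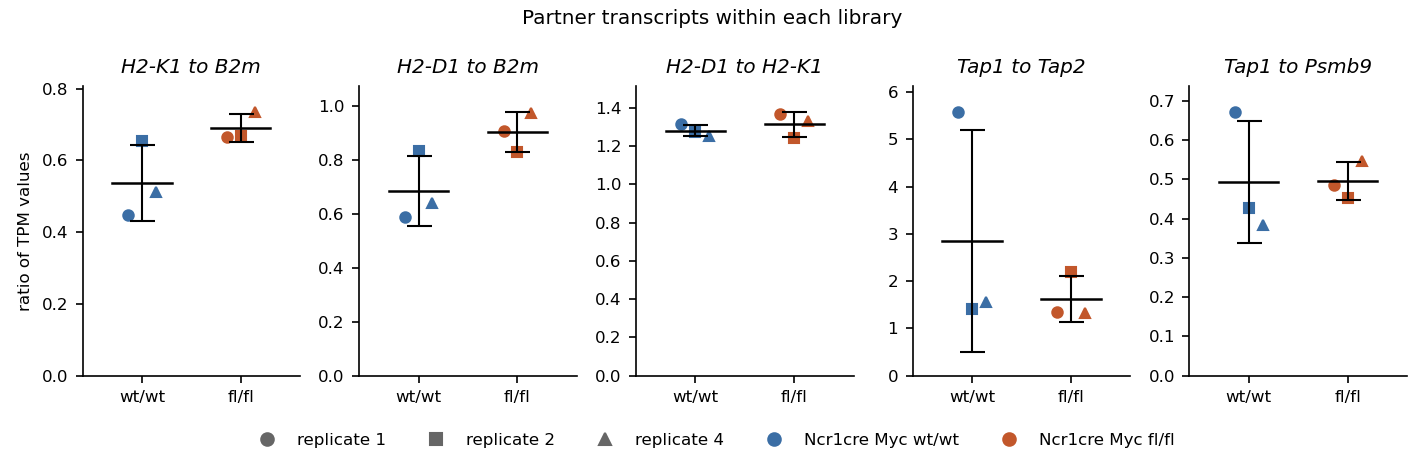
TPM ratio (linear axis from 0) of 5 pairs of partner transcripts in the 6 libraries, with points for libraries, lines for group means and bars for the SD (n = 3). The ratio of H2-K1 to B2m is separated between genotypes, and the ratio of Tap1 to Tap2 has 1 high point, 5.57, in wt/wt library 1.

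The annotated transcripts that carried these counts differed between the genes. B2m has 1 transcript in the files, and H2-D1-202, with 8 exons, carried 97.7% to 99.2% of the H2-D1 counts. H2-T23-201, the coding form with 7 exons, carried 86.0% to 90.6% of the H2-T23 counts (87.5%, 86.0% and 87.0% in wt/wt, 90.6%, 90.0% and 86.6% in fl/fl). The retained intron form H2-T23-202 carried 5.53%, 9.66% and 8.71% in wt/wt and 6.03%, 5.64% and 7.18% in fl/fl, with overlapping groups in both forms. H2-K1 was divided mainly between the coding forms H2-K1-201 (62.7% to 79.8%) and H2-K1-205 (14.4% to 21.7%).

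Tap2 counts were assigned mostly to Tap2-202, annotated as a retained intron with 11 exons (80.8% to 87.8%), and the coding Tap2-201 with 12 exons carried 12.1% to 18.9%. For Nlrc5, the coding Nlrc5-207 with 53 exons carried 69.6% to 80.3%, and the retained intron form Nlrc5-203 carried 4.59% to 18.1%. The shallow wt/wt library stood apart in several genes. Tap1-201 carried 66.9% of its Tap1 counts (95% Wilson interval 65.4% to 68.3%) against 35.2% to 42.9% in the other libraries, and Calr-201 carried 69.5% of its Calr counts against 84.6% to 89.5%. Tapbp-202, a short noncoding form of 649 bases, had 0 counts in it, which allows up to 0.0788% of its Tapbp counts by the same interval, and carried 4.87% to 8.63% elsewhere. A short form adds much TPM for few counts. Tapbp in TPM was lowest in that library, at 351 TPM, and the part of Tapbp-202 in that value was not tested. These intervals cover counting error only.

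The other genes of the pathway were counted from lists written by name. Of 31 further heavy chain and class I-like genes, 27 were in the files and 19 were tested, and 0 of them passed the threshold in edgeR, while DESeq2 called 1 as higher (4.17% of all genes), as did edgeR with no filter on low counts (2.53% of all genes). At an unadjusted p below 0.05, 5 were higher and 0 were lower, against 12.4% and 10.2% of all genes, and the median log2 fold change was 0.15. H2-Q10, a secreted class I chain, had 40.4, 62.0 and 64.4 CPM in wt/wt and 69.8, 74.0 and 139 CPM in fl/fl, without overlap (log2 fold change 0.72, SE 0.18, edgeR adjusted p = 0.037). H2-T22, a ligand of γδ T cell receptors, had 189 ± 6.63 and 243 ± 29.0 CPM (SD, n = 3 each, log2 fold change 0.36, edgeR adjusted p = 0.14).

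Of 15 other genes of the loading complex and of ER folding, 0 passed in edgeR or in DESeq2, 2 had an unadjusted p below 0.05 as lower and 0 as higher (10.2% and 12.4% of all genes), and the median log2 fold change was −0.09. The 2 were the partners of calreticulin and of the glycoprotein cycle. Pdia3, which encodes the thiol oxidoreductase ERp57 of the loading complex, had 851 ± 60.2 CPM in wt/wt and 640 ± 171 CPM in fl/fl (SD, n = 3 each, log2 fold change −0.45, edgeR adjusted p = 0.14). Canx, the membrane-bound chaperone calnexin, had 511 ± 50.6 and 405 ± 34.7 CPM (SD, n = 3 each, log2 fold change −0.33, edgeR adjusted p = 0.19).

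Genes that make the peptides were mostly on the lower side. Of the 9 genes of the immunoproteasome, the constitutive subunits that it replaces and the PA28 activator, 0 passed in edgeR or in DESeq2, but all 9 had a log2 fold change below 0 (48.5% of all genes), and 6 had an unadjusted p below 0.05 (background 10.2%), with a median of −0.32. Psmb5 and Psmb6, catalytic subunits of the constitutive proteasome, had the smallest adjusted p among them, with log2 fold changes of −0.62 and −0.59 (edgeR adjusted p = 0.068 and 0.11). Psmb9 and Psmb8, the immunoproteasome genes beside Tap1 and Tap2, had −0.12 and −0.19 (edgeR adjusted p = 0.67 and 0.51), and the genotypes overlapped in both.

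Of 7 peptidases listed, 6 were tested. None of them passed in edgeR, 3 had an unadjusted p below 0.05 as lower and 0 as higher (10.2% and 12.4% of all genes), and the median log2 fold change was −0.35. Among the alternatives, DESeq2, edgeR with no replicate block and edgeR with no filter on low counts each called 1 as lower (3.54%, 1.19% and 1.83% of all genes). Lap3, a cytosolic leucine aminopeptidase, had 58.1, 42.8 and 37.6 CPM in wt/wt and 20.6, 25.6 and 21.8 CPM in fl/fl. Its groups were well apart, with a log2 fold change of −1.0 (SE 0.19), but the edgeR adjusted p of 0.013 missed the limit of 0.01. Blmh, the bleomycin hydrolase, which also trims peptides, had a log2 fold change of −0.41 (edgeR adjusted p = 0.093).

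Of 20 genes that regulate class I transcription, 0 passed in edgeR. At an unadjusted p below 0.05, 5 were higher and 1 was lower, against 12.4% and 10.2% of all genes, DESeq2 called 1 as lower (3.54% of all genes), as did edgeR with no filter on low counts (1.83% of all genes), and the median log2 fold change was 0.06. The lower gene was Ezh2, the methyltransferase of Polycomb repressive complex 2, with 87.6 ± 5.49 and 53.8 ± 8.79 CPM (SD, n = 3 each, log2 fold change −0.71, edgeR adjusted p = 0.022). Jak2, a kinase of interferon-γ receptor signalling, had 141 ± 14.8 and 199 ± 6.13 CPM (SD, n = 3 each, log2 fold change 0.50, edgeR adjusted p = 0.055). Of 20 interferon-stimulated genes, 0 passed in edgeR, and DESeq2 and edgeR with no filter on low counts each called 1 as higher (4.17% and 2.53% of all genes). Log2 fold changes were above 0 in 17 of the 20 (51.5% of all genes), with a median of 0.19, and at an unadjusted p below 0.05, 4 were higher and 0 were lower (12.4% and 10.2% of all genes). Usp18, the protease of the ISG15 modifier, had the smallest adjusted p among them, at 36.0 ± 10.2 and 59.7 ± 9.07 CPM (SD, n = 3 each, log2 fold change 0.75, edgeR adjusted p = 0.015). Rsad2, which encodes the antiviral protein viperin, was at a low level in both, 4.34 ± 1.90 and 8.34 ± 1.89 CPM (SD, n = 3 each, log2 fold change 1.0, edgeR adjusted p = 0.079).

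The libraries also differed in markers of other cells, and class I genes are expressed by nearly all nucleated cells. NK cell genes were abundant in every library, with Nkg7 at 3338 ± 373 and 4016 ± 297 CPM, Il2rb at 3041 ± 313 and 4193 ± 298 CPM and Klrk1 at 2344 ± 60.0 and 2284 ± 325 CPM (wt/wt and fl/fl, SD, n = 3 each), and the 10 NK cell markers summed to between 15326 and 15764 CPM in wt/wt and between 17447 and 18131 CPM in fl/fl. Among these 10, 0 passed in edgeR, and at an unadjusted p below 0.05, 2 were higher, Il2rb and Prf1 (12.4% of all genes), and 1 was lower, Gzma (10.2% of all genes), which DESeq2 called (3.54% of all genes). With no filter on low counts, edgeR called 1 of the 10 as higher (2.53% of all genes). Gzma, the granzyme A gene, had 1709 ± 275 CPM in wt/wt and 1103 ± 248 CPM in fl/fl without overlap (SD, n = 3 each, log2 fold change −0.64, edgeR adjusted p = 0.056). Prf1, the perforin gene, had 616, 689 and 498 CPM in wt/wt and 846, 891 and 1988 CPM in fl/fl (log2 fold change 0.93, edgeR adjusted p = 0.077), with library 4 of fl/fl far above the rest. For the other markers, the share of all genes that passed as higher was 1.28% in edgeR and 4.17% in DESeq2. Of 8 basophil and mast cell markers, 7 passed as higher (8 in DESeq2), and their sum was 15.1 to 18.5 CPM in wt/wt and 121 to 332 CPM in fl/fl, with Prss34, Mcpt8 and Cpa3 the highest in mean CPM. Of 10 neutrophil and myeloid progenitor markers, 9 were tested and 4 passed as higher (7 in DESeq2), with sums of 85.4 to 140.3 and 538 to 897 CPM, highest in mean CPM for Mpo, Elane and Ctsg. Of 8 dendritic cell markers, 3 passed as higher (5 in DESeq2), with sums of 472 to 534 and 981 to 1218 CPM, highest in mean CPM for Irf8, Itgax and Tcf4, and of 7 monocyte markers, 6 were tested and 4 passed (4 in DESeq2 and 2 with no replicate block), with sums of 1667 to 1873 and 2096 to 2386 CPM, highest in mean CPM for Ccr2, Ly6c2 and F13a1. Of 7 erythroid markers, 2 passed as higher (5 in DESeq2, and 7 in edgeR with no filter on low counts, where 2.53% of all genes passed), with sums of 43.0 to 277 and 536 to 1133 CPM, highest in mean CPM for Hba-a2, Hbb-bs and Hba-a1. B cell markers summed to 4.16 to 7.74 and 10.7 to 14.1 CPM, highest in mean CPM for Cd79b, Cd79a and Ms4a1, and T cell markers to 254 to 525 and 298 to 388 CPM, highest in mean CPM for Cd3g, Cd3d and Cd3e, and 0 of the 4 and 6 genes tested passed in edgeR. Ccr2 made up most of the monocyte sum, at 1561 ± 154 CPM in wt/wt and 1855 ± 176 CPM in fl/fl (SD, n = 3 each). Its groups overlapped and it did not pass (log2 fold change 0.25, edgeR adjusted p = 0.31). The monocyte marker Fcgr1 and the B cell marker Vpreb1 were at 0 in all wt/wt libraries. The sums of the NK cell, basophil, neutrophil, dendritic cell, monocyte, erythroid and B cell lists were higher in every fl/fl library than in any wt/wt library, as H2-T23, Tapbp and Calr were, and that of the T cell list overlapped. Marker sums other than that of the T cell list thus moved with the genotype, although no NK cell, B cell or T cell marker passed in the main edgeR fit. The part of the marker levels in the class I values was not tested.

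The size of each difference was set beside its values under other settings, namely other tools and scalings, other filters and each replicate number left out. H2-T23, Tapbp, Calr, Tap2 and H2-D1 stayed above 0 and Nlrc5 and Erap1 stayed below 0 in all of them, while H2-K1, B2m and Tap1 had values on both sides.

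**Figure D5:**
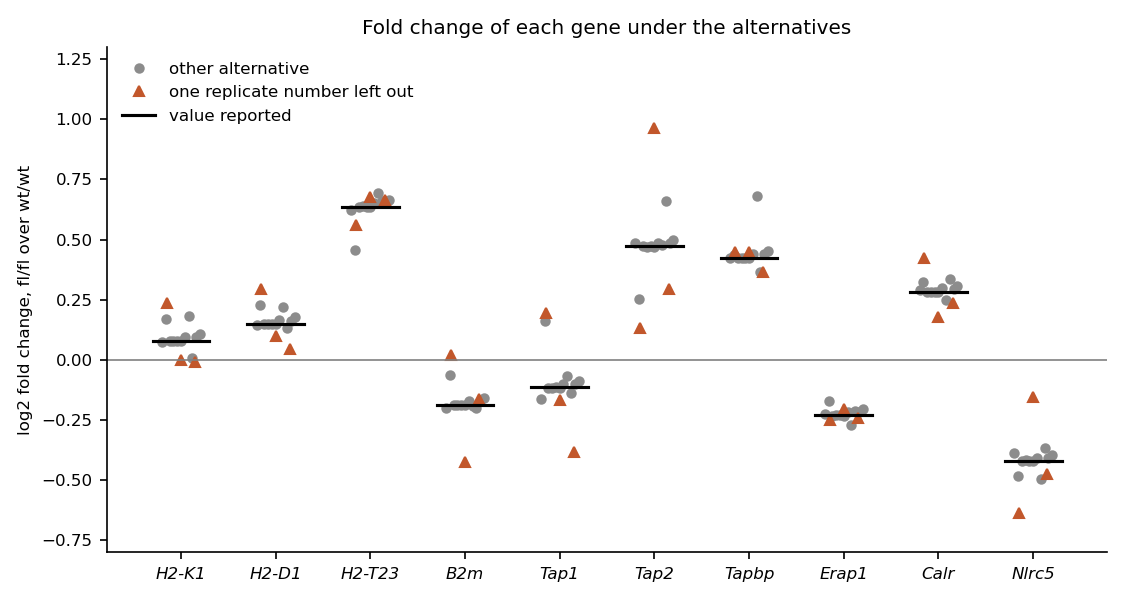
Log2 fold change of the 10 genes, fl/fl over wt/wt, under the main analysis and its alternatives, with a point for each setting and a black line for the value reported. H2-T23 stays between 0.46 and 0.69, whereas Tap1, B2m and H2-K1 have points on both sides of 0.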

How the data were processed

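RNA-seq of 3 libraries per genotype was analysed from the transcript tables of the authors. The authors deposited an estimated count for each of 100583 transcripts, not normalized, and a TPM value scaled for length by them, next to the effective length. The methods name Salmon in nf-core/RNAseq with GRCh38, whereas the identifiers are those of mouse transcripts and the columns are laid out as by kallisto. The methods name no mouse transcript release. Estimated counts were summed per symbol through GENCODE M21 (100239 transcripts matched, with 0.129% to 0.169% of counts unmatched), rounded, filtered with filterByExpr, scaled by TMM and tested by edgeR 4.0.16 (R 4.3.3). The replicate number was a block in the fit, since the study calls its analysis paired. P-values were adjusted by Benjamini-Hochberg over 15474 genes. The alternatives were DESeq2 1.42.0, limma-trend 3.58.1 (prior count 3), the largest adjusted p of the 3 tools, other scalings and filters, a limit of 0.05, effective length offsets, no block, each replicate number left out, and estimated counts in place of TPM in ratios. Summing protein-coding transcripts only was chosen after seeing the data. The tests were tried on simulated data. Within a genotype, libraries were further apart than counting noise allows (chi-square per degree of freedom 36.5 to 91.9). The members and lists were chosen with earlier results of these data known. Beside the 10 genes, the text names Myc, Psmb8, Psmb9, the 2 genes with the smallest adjusted p of each pathway list, and the 3 with the highest mean CPM of each marker list. Individual genes mentioned beyond these (Fcgr1, Gzma, H2-Q6, H2-Q7, Prf1, Vpreb1) were chosen after their values were seen.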

Additional observations from a re-analysis of the deposited data

How the results depend on the processing

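Over 14 alternatives for each of the 10 genes, 134 of 140 fold changes kept direction and side of the threshold. H2-T23 passed in DESeq2 (0.63, adjusted p = 0.000356) and with no filter on low counts (0.65, edgeR adjusted p = 0.0043), and its adjusted p ranged up to 0.069. Members past the threshold as higher therefore numbered 1 with DESeq2, with no filter and when only an adjusted p under 0.05 was asked for, and 0 in the other 12 of 15 alternatives. None was lower in any of the 15. Leaving out one replicate number at a time gave 0 calls each time. It gave −0.0075 to 0.24 for H2-K1, the lowest without number 4, −0.42 to 0.021 for B2m and −0.38 to 0.19 for Tap1, the highest of both without number 1. With wt/wt library 1 alone left out and no replicate block, Tap1 was 0.16. The log2 ratio of Tap1 to Tap2 ranged from −1.13 to 0.20 and that of Tap1 to Psmb9 from −0.19 to 0.30, and the latter was −0.0014 in estimated counts. What caused these changes was not tested.

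The replicate block rests on numbers that are not shown to pair the mice. Deviations from the group means correlated over 15474 genes at −0.012, −0.024 and 0.055 for numbers 1, 2 and 4, below the limit of 0.1, and 1 of 3 wt/wt libraries correlated best with its own number. With no replicate block, 184 genes were lower and 203 higher instead of 135 and 198, 0 of the 10 genes passed, and the adjusted p was 0.040 for H2-T23 and 0.034 for Tapbp in edgeR. Counts over all genes moved further under other settings, to 548 lower and 645 higher in DESeq2, 378 and 524 with no filter, 51 and 85 with protein-coding transcripts only, 25 and 49 with library size only, 8 and 24 with effective length offsets, 10 and 49 without number 1, and 47 and 88 without number 2. Every comparison that rests on wt/wt library 1 is limited by it. Whether its low depth accounts for its departures from the other libraries was not tested.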

Other observations

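Genes of MHC class II presentation, which belong to antigen-presenting cells, were also counted. Of 10 tested, 0 passed the threshold in edgeR and DESeq2 called 2 as higher (4.17% of all genes), while edgeR with no filter on low counts called 1 (2.53% of all genes). At an unadjusted p below 0.05, 6 were higher and 0 were lower, against 12.4% and 10.2% of all genes, and the median log2 fold change was 0.42. The summed level ran from 214 to 281 CPM in wt/wt and from 271 to 378 CPM in fl/fl, with overlapping ranges. H2-Eb1, the β chain of I-E, had 5.33, 11.02 and 7.89 CPM in wt/wt and 15.3, 18.1 and 13.7 CPM in fl/fl (log2 fold change 0.98, SE 0.23, edgeR adjusted p = 0.032). H2-Aa, the α chain of I-A, had 9.61, 15.2 and 8.03 CPM in wt/wt and 19.3, 21.6 and 15.4 CPM in fl/fl (log2 fold change 0.81, SE 0.20, edgeR adjusted p = 0.040). The fl/fl libraries lay above all wt/wt libraries in both genes, at levels far under those of the class I chains. The summed levels of dendritic cell markers and of monocyte markers were higher in the same libraries. Not all of these markers passed, and most of the monocyte sum was Ccr2, which did not. Their part in the class II values was not tested.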
